A study of Oryctolagus cuniculus with 16 samples.

Results

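The circadian clock genes were the rows of the count table named ARNTL, CLOCK, NPAS2, PER1, PER2, CRY1, CRY2 and NR1D1, which are 8 of the 10 symbols sought and 8 of 13001 named genes. PER3 and DBP were not analysed here. All 8 passed the filter on low counts, with 36 to 3818 reads per library. Messenger RNA of the vaginal wall was sequenced from female rabbits of the New Zealand White breed, 17 to 19 weeks old, in 16 libraries. Unoperated controls gave 6 libraries (control 2, 9, 16, 24, 25, 29), sham surgery gave 3 (sham 11, 12, 14), acellular grafts gave 3 (acellular 6, 8, 10) and PLATE grafts, which bear tissue particles, gave 4 (PLATE 1, 5, 9, 13). Tissue from grafted animals was taken 10 mm away from the graft, and no distance is given for the others. No time of day, healing interval or batch is given in the sources used here, so sampling time and treatment cannot be told apart. The labels give an animal number for each library, with the number 9 used for a control as well as for a PLATE library.

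The circadian clock is a feedback loop of transcription that runs in most cells of the body. ARNTL (also called BMAL1) pairs with CLOCK or its relative NPAS2, and the pair switches on the PER and CRY genes, whose proteins return to the nucleus and block it. NR1D1 (REV-ERB alpha) is switched on by the same pair and represses ARNTL, which forms a second loop, so that in rhythmic tissues of mice the ARNTL and NR1D1 transcripts peak at nearly opposite times. CRY1 reaches its peak later than the PER genes in mouse tissues and is itself repressed by NR1D1. A set of tissues sampled at different hours can therefore show the loop as opposed levels, and it was asked whether the activators (ARNTL, CLOCK, NPAS2) and the repressors (PER1, PER2, CRY1, CRY2, NR1D1) ran opposite across these libraries.

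Libraries held 15348880 to 23236339 reads on named genes. Levels are CPM, which are counts scaled by the effective library size, and changes are log2 fold changes with their standard error (SE) from edgeR, whose adjusted p-values cover all 10942 genes tested. In each list of markers named here, the summed level varied widely among libraries. Smooth muscle markers (8 of 10 listed genes measured) summed to between 9416 and 158400 CPM among controls and between 13660 and 64270 CPM among operated animals. Columnar epithelium markers (8 of 10) summed to 15.75 CPM in control 2 and to 222.6 to 1395 CPM elsewhere. Leukocyte markers (7 of 8) summed to 2363 CPM in PLATE 1. PLATE 1, control 2 and control 9 stand apart from their groups in composition. Some of the results they enter, not all, are also given without them. In bulk tissue, fewer cells of a type and less RNA per cell cannot be told apart.

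ARNTL, the obligate activator, ran from 3.24 CPM in control 2 to 17.4 CPM in PLATE 1. Control libraries had a lowest value of 3.24, a median of 11.4 and a highest of 14.4 CPM. Sham 11, 12 and 14 stood at 4.42, 3.45 and 4.82 CPM. All 3 sham values lay below every control other than control 2. Acellular 6, 8 and 10 stood at 7.85, 5.04 and 6.86 CPM, and PLATE 1, 5, 9 and 13 at 17.4, 5.90, 7.95 and 10.4 CPM. The group means were ordered PLATE (10.4 ± 5.01, SD, n = 4), control (9.93 ± 4.39, n = 6), acellular (6.58 ± 1.42, n = 3) and sham (4.23 ± 0.705, n = 3). Acellular and sham did not overlap, whereas every other pair of neighbours in this order did.

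NPAS2, which can take the place of CLOCK beside ARNTL, was highest in PLATE 1, at 36.5 CPM, against 12.7 to 14.5 CPM in the other PLATE libraries. It stood at 6.15, 10.7 and 8.94 CPM in sham 11, 12 and 14 and at 8.99, 7.66 and 9.77 CPM in acellular 6, 8 and 10. Controls had a lowest value of 5.67, a median of 13.7 and a highest of 17.7 CPM. The PLATE libraries all lay above the sham and acellular libraries and inside the control range except PLATE 1. CLOCK itself, the DNA-binding partner of ARNTL, varied less, between 32.5 and 59.3 CPM in 15 libraries. PLATE 1 stood below these at 16.9 CPM. Its group means were 46.6 ± 11.0 CPM in control, 44.8 ± 2.81 in sham, 39.3 ± 4.41 in acellular and 32.5 ± 10.5 in PLATE.

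NR1D1 was the most variable of the 8 genes. It ran from 5.82 CPM in control 24 to 183 CPM in sham 12, a 31.4-fold range, and its SD of 1.40 on the log2 scale exceeded that of 94.0% of genes tested. The controls alone spanned 23.0-fold, from 5.82 CPM over a median of 54.3 to 134 CPM in control 16. Sham 11, 12 and 14 stood at 110.5, 182.8 and 45.6 CPM, acellular 6, 8 and 10 at 103.5, 87.5 and 37.6 CPM, and PLATE 1, 5, 9 and 13 at 7.05, 74.8, 44.6 and 45.5 CPM. Every pair of groups overlapped. The 3 lowest libraries, control 24, PLATE 1 and control 9 (19.0 CPM), came from 2 groups. For comparison the log2 SD was 0.73 for ARNTL, 0.65 for NPAS2, 0.41 for CLOCK, 0.66 for PER1, 0.63 for PER2, 0.68 for CRY1 and 0.36 for CRY2, and the median over all genes was 0.43.

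PER1, the period gene that also responds quickly to hormones and cell stimulation, was highest in acellular 6, at 101.5 CPM, with the other acellular libraries at 35.2 and 27.7 CPM. Sham values were close together at 60.4, 59.6 and 66.7 CPM. PLATE 1, 5, 9 and 13 stood at 16.5, 44.2, 26.2 and 42.1 CPM, all below every sham library. Controls ran from 30.8 over a median of 49.1 to 78.9 CPM. PER2, its partner in the repressor complex, stood at 7.40, 9.34 and 11.9 CPM in sham 11, 12 and 14. Controls reached from 3.09 over a median of 3.93 to 5.26 CPM, so that all 3 sham libraries lay above all 6 controls. Acellular 6 was at 7.53 CPM with acellular 8 and 10 at 3.43 and 3.70 CPM. PLATE 1 and 5 stood at 2.52 and 3.62 CPM, and PLATE 9 and 13 at 6.49 and 6.59 CPM.

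CRY2, a cryptochrome of the repressor complex, had the narrowest range. Sham 11, 12 and 14 stood at 13.4, 13.8 and 9.72 CPM, above all 6 controls (7.12 to 9.49 CPM, median 7.48). Acellular libraries lay at 8.00 to 8.67 CPM and PLATE libraries at 4.66 (PLATE 1), 8.30, 8.32 and 9.84 CPM. CRY1, the late cryptochrome, had a wider spread, from 7.90 CPM in control 16 to 41.1 CPM in control 24, with a control median of 15.5 CPM. Sham 11 and 12 were at 8.85 and 9.19 CPM and sham 14 at 26.6 CPM, acellular libraries at 16.3 to 21.7 CPM and PLATE libraries at 12.7 to 27.5 CPM. Every pair of groups overlapped for CRY1.

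**Figure D1:**
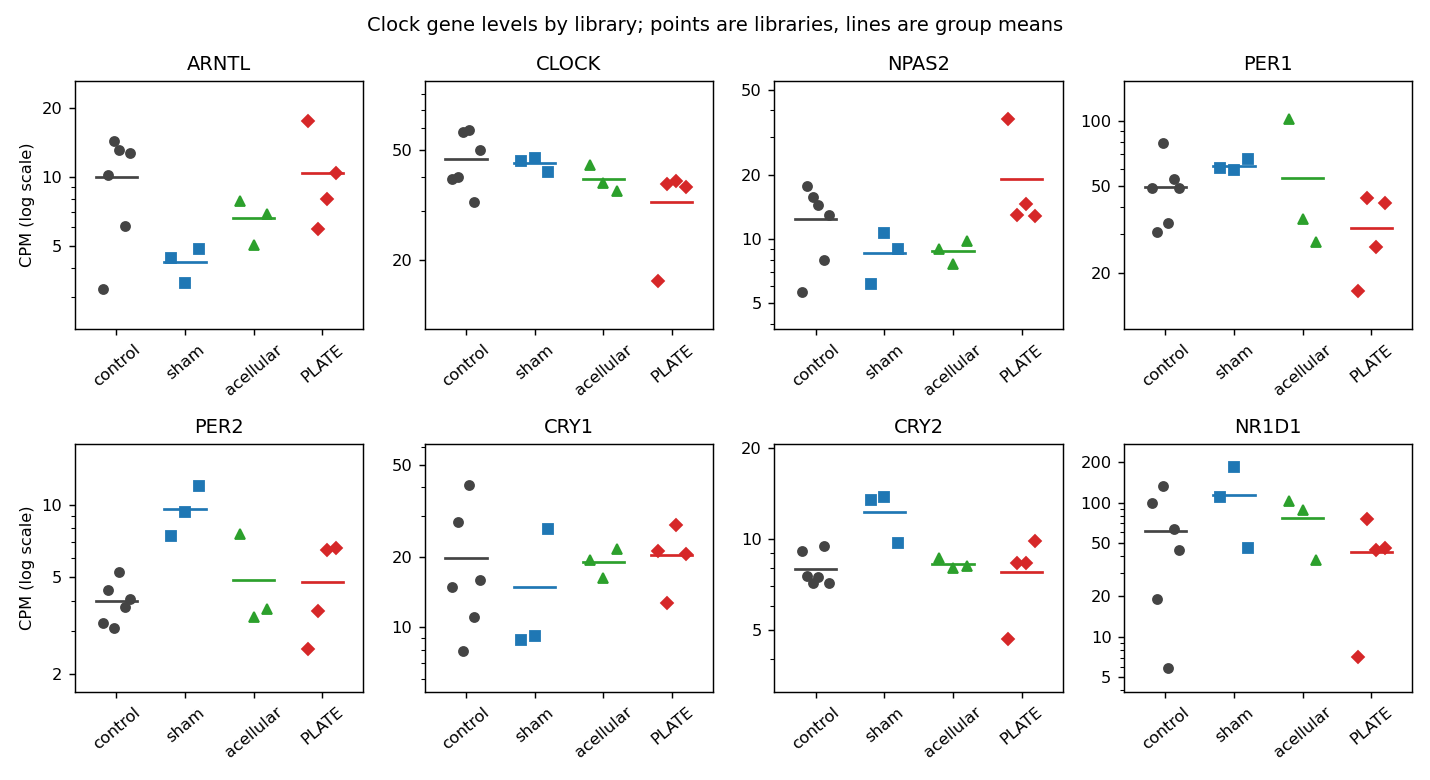
Level of each clock gene in CPM (log axis) in every library, grouped by treatment; points are libraries and horizontal lines are group means. The 3 sham libraries lie above all 6 controls for PER2 and CRY2, and NR1D1 spans 5.82 to 183 CPM.

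Sham against control asks what surgery without a graft left behind. Sham libraries were higher in the repressors PER2 and CRY2 and lower in ARNTL, although no clock gene passed the test. PER2 averaged 9.55 ± 2.26 CPM (SD, n = 3) against 3.98 ± 0.804 CPM (n = 6), a log2 fold change of 1.26 ± 0.34 SE (2.39-fold). Its unadjusted p of 0.00203 was the 6th smallest of all genes and its adjusted p was 0.963. CRY2 averaged 12.3 ± 2.25 against 7.97 ± 1.04 CPM (log2 fold change 0.63 ± 0.23, adjusted p = 0.963). ARNTL averaged 4.23 ± 0.705 against 9.93 ± 4.39 CPM (log2 fold change -1.23 ± 0.44, adjusted p = 0.963). No overlap between the groups was seen for 2 of the 8 genes, PER2 and CRY2, beside 3.69% of all genes, and 4 of 8 had a log2 fold change above 0 beside 42.1%. An unadjusted p under 0.05 was reached by 3 of the 8, against 2.98% of all genes, by 2 without sham 11 and by 1 without sham 12. With any 1 library left out, the log2 fold change of PER2 stayed between 1.07 and 1.43, that of CRY2 between 0.54 and 0.77 and that of ARNTL between -1.41 and -1.10.

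The other clock genes listed beside the members were compared in the same way, and none passed the test. TEF, a transcription factor of the same family as DBP, stood at 66.0, 51.6 and 46.0 CPM in sham, above all controls (19.96 to 44.6 CPM), a log2 fold change of 0.85 ± 0.34 (adjusted p = 0.963). NR1D2, the close relative of NR1D1, averaged 324 ± 33.2 CPM in sham and 201 ± 62.2 in control without overlap (0.69 ± 0.41, adjusted p = 0.963). NFIL3, which opposes DBP and TEF at the same DNA sites, stood at 3.40, 4.02 and 8.52 CPM in sham against 8.46 to 21.9 CPM in control (-1.48 ± 0.64, adjusted p = 0.963). KLF10, a growth factor-responsive factor tied to the clock, averaged 16.6 ± 5.03 CPM in sham and 29.1 ± 6.14 in control with no overlap (-0.81 ± 0.30, adjusted p = 0.963). HLF, another member of the DBP family, and CIART, a repressor of the ARNTL and CLOCK pair, overlapped between the groups (HLF 0.54 ± 0.57, CIART 0.77 ± 0.57). Of 24 other clock genes tested, of 30 listed, 16 were higher and 8 lower in sham, where 42.1% of all genes were higher. Their median log2 fold change was 0.11 beside -0.06 for all genes. Groups did not overlap for 3 of these 24, beside 3.69% of all genes.

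Immediate early genes, which cells switch on within minutes of a stimulus, were lower in value in the same contrast. All 11 measured of 15 listed were lower in sham than in control, at a median log2 fold change of -2.46. Their summed level was 466 to 727 CPM in sham and 279 to 6926 CPM in control. All 11 were lower than control in PLATE and in acellular as well, at medians of -1.69 and -0.73. Glucocorticoid-responsive genes, among which PER1 is counted, were lower in sham for 7 of 10 measured at a median of -0.60. In PLATE and in acellular 8 of 10 were lower than control, at medians of -0.54 and -0.39. The part of either in the clock gene values was not tested.

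**Figure D2:**
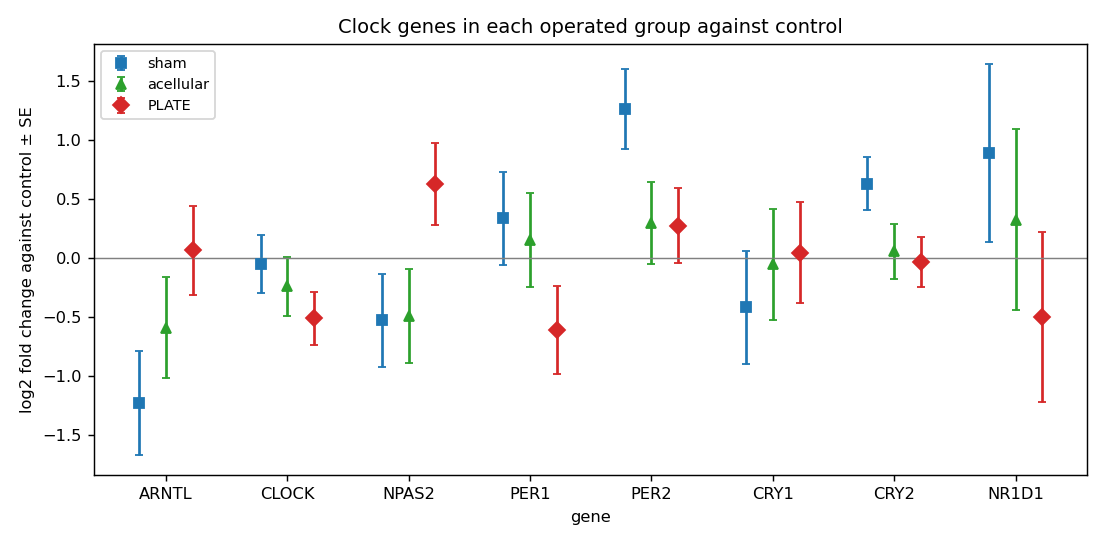
Log2 fold change of each clock gene against the 6 controls, with 1 SE from the edgeR fit, for sham (n = 3), acellular (n = 3) and PLATE (n = 4). Sham stands at 1.26 for PER2 and -1.23 for ARNTL, and no value passed the adjusted threshold of 0.05.

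PLATE against sham held the most clock genes without overlap. The activators ARNTL and NPAS2 were higher in PLATE and the period genes and CLOCK lower, again with no gene past the test. ARNTL averaged 10.4 ± 5.01 CPM (n = 4) against 4.23 ± 0.705 CPM (n = 3), a log2 fold change of 1.30 ± 0.47 (adjusted p = 0.657). NPAS2 averaged 19.2 ± 11.6 against 8.59 ± 2.29 CPM (1.16 ± 0.43, adjusted p = 0.657). PER2 averaged 4.81 ± 2.05 against 9.55 ± 2.26 CPM (-0.99 ± 0.38, adjusted p = 0.657), PER1 32.2 ± 13.2 against 62.2 ± 3.89 CPM (-0.95 ± 0.43, adjusted p = 0.657) and CLOCK 32.5 ± 10.5 against 44.8 ± 2.81 CPM (-0.46 ± 0.26, adjusted p = 0.676). These 5 of 8 genes did not overlap, where 14.9% of all genes did not, and 3 of 8 were above 0 beside 52.6%. An unadjusted p under 0.05 was reached by 5 of 8 (CRY2 in place of CLOCK) against 7.50% of all genes, and by 2 of 8 without PLATE 1, without sham 11 or without sham 12. In the same contrast 7 of 7 leukocyte markers were higher in value (median log2 fold change 2.06, 4 without overlap) and 7 of 8 nerve and Schwann cell markers lower (median -1.26, 4 without overlap). The part of these in the clock gene values was not tested. NPAS2 depended on PLATE 1, its log2 fold change being 0.64 without that library, and CLOCK likewise at -0.25. With any 1 library left out, the log2 fold change of ARNTL lay between 0.93 and 1.49. Sham libraries take part in this comparison and in the one with control, so the low ARNTL and high PER2 of sham enter both.

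Among the other clock genes TEF averaged 23.9 ± 10.4 CPM in PLATE against 54.5 ± 10.3 CPM in sham without overlap (log2 fold change -1.19 ± 0.38, adjusted p = 0.657). HLF averaged 67.2 ± 37.0 against 157 ± 5.89 CPM, also without overlap (-1.22 ± 0.63, adjusted p = 0.658). NR1D2 averaged 174 ± 92.0 against 324 ± 33.2 CPM, again without overlap (-0.90 ± 0.45, adjusted p = 0.657). NFIL3 overlapped and stood at 1.76 ± 0.68 (adjusted p = 0.657). PLATE 1 held the lowest TEF, HLF and NR1D2 (9.31, 12.6 and 41.9 CPM) and the highest NFIL3 (44.6 CPM) of its group. The fold changes of these genes are not given here without it. Of the 24 tested, 7 were higher and 17 lower, where 52.6% of all genes were higher. Their median was -0.15 beside 0.03 for all genes. Groups did not overlap for 5 of these 24 (USP2 and SIRT1 are the others), beside the 14.9% of all genes given above.

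Against control, no clock gene separated either graft group. In acellular against control the 2 clock genes with the smallest p were ARNTL (log2 fold change -0.60 ± 0.43, adjusted p = 0.881) and NPAS2 (-0.50 ± 0.40, adjusted p = 0.886). Groups overlapped for all 8, where 1.73% of all genes did not overlap. An unadjusted p under 0.05 was reached by 0 of 8 against 6.00% of all genes, and 4 of 8 were above 0 beside 45.8%. In PLATE against control CLOCK had the smallest p (-0.52 ± 0.23, adjusted p = 0.998), followed by NPAS2 (0.63 ± 0.35, adjusted p = 0.998). Without PLATE 1 the CLOCK value was -0.30 and the NPAS2 value 0.11. All 8 overlapped, where 0.119% of all genes did not, and 1 of 8 reached an unadjusted p under 0.05 against 4.39% of all genes, with 4 of 8 above 0 beside 47.7%. The mean of the 3 operated groups stood apart from control most in PER2 (0.61 ± 0.26, adjusted p = 0.9995) and ARNTL (-0.59 ± 0.30, adjusted p = 0.9995). There all 8 overlapped, against 0.00914% of all genes without overlap, and 1 of 8 had an unadjusted p under 0.05 against 3.88%, with 3 of 8 above 0 beside 44.6%.

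Acellular against sham had ARNTL higher in each acellular library than in each sham library, at 6.58 ± 1.42 against 4.23 ± 0.705 CPM (log2 fold change 0.64 ± 0.49, adjusted p = 0.902). CRY2 was lower in each, at 8.27 ± 0.352 against 12.3 ± 2.25 CPM (-0.57 ± 0.27, adjusted p = 0.902), and PER2 overlapped through acellular 6 alone (-0.96 ± 0.41, adjusted p = 0.902). Groups did not overlap for 2 of 8 genes where 18.3% of all genes did not, and 2 of 8 had an unadjusted p under 0.05 against 4.87%, with 3 of 8 above 0 beside 52.2%. The count with an unadjusted p under 0.05 was 0 without sham 12, acellular 8 or acellular 10, 2 without acellular 6, PLATE 1 or PLATE 13, and 1 without any other single library or with DESeq2 size factors. In this contrast 8 of 8 smooth muscle markers were lower and without overlap (median log2 fold change -1.47), and 8 of 8 fibroblast markers were lower (median -1.15, 4 without overlap). The part of these in the clock gene values was not tested. In PLATE against acellular NPAS2 did not overlap, at 19.2 ± 11.6 against 8.80 ± 1.07 CPM (1.12 ± 0.43, adjusted p = 0.875), with 0.60 without PLATE 1. PER1 stood at -0.77 ± 0.43 (adjusted p = 0.875) and at 0.04 without acellular 6. Here 1 of 8 did not overlap against 4.97% of all genes, and 1 of 8 had an unadjusted p under 0.05 against 4.71%, with 3 of 8 above 0 beside 52.4%. Over all 4 groups jointly, PER2 had the smallest p among the 8 (edgeR adjusted p = 0.901), and 3 of 8 had an unadjusted p under 0.05 against 4.80% of all genes. In each of these 8 comparisons edgeR called 0 clock genes and 0% of all genes at an adjusted p under 0.05. Limma voom called 0 clock genes in each, and DESeq2 called 0 in the 7 where it gave them an adjusted p (all but acellular against control). Over all genes, limma voom called 72 in acellular against sham and 0 in each other comparison. DESeq2 called 14 genes in PLATE against sham, 17 in acellular against control and 0 or 1 in each other comparison.

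Across all 16 libraries the arms were opposed in some pairs only. Of 15 pairs of an activator and a repressor, 9 had a correlation below 0, and 7 did after centring on group means. ARNTL and NPAS2 had r below 0 with PER1, PER2, CRY2 and NR1D1 (8 of 10 pairs), while both were above 0 with CRY1. Their pairs with PER1 and PER2 did not pass the test below. NPAS2 stood at -0.573 with PER1 (permutation p = 0.0198, adjusted p = 0.0504) and at -0.314 with PER2 (permutation p = 0.239, adjusted p = 0.279). CLOCK was above 0 with 4 of the 5 repressors. Each of the 28 pairs among the 8 genes was tested with a two-sided permutation test of 100000 resamples, adjusted over the 28, and 10 passed with Pearson's r. Among these were 4 opposed activator and repressor pairs and 1 that ran together, CLOCK and PER1. With Spearman's rho 7 of the 28 passed. The share of pairs of other genes that would pass either test was not counted. Ranks among all genes are given below for ARNTL and NR1D1. By r with NR1D1, 5.05% of all genes stood below ARNTL, 4.37% below NPAS2 and 3.03% above CRY2, and these 3 pairs passed. By r with ARNTL, 0.128% stood below CRY2 and 0.0548% above NPAS2. The pairs that passed with r alone were ARNTL with NR1D1, NPAS2 with NR1D1, CLOCK with PER1 and CRY2 with NR1D1 (adjusted p for rho = 0.0693, 0.1063, 0.1101 and 0.09535). PER1 and CRY1 passed with rho alone (rho = -0.624, permutation p = 0.01129, adjusted p = 0.0452), with r = -0.506 (permutation p = 0.0443, adjusted p = 0.0955) and r = -0.695 without acellular 6 and PLATE 1.

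**Figure D3:**
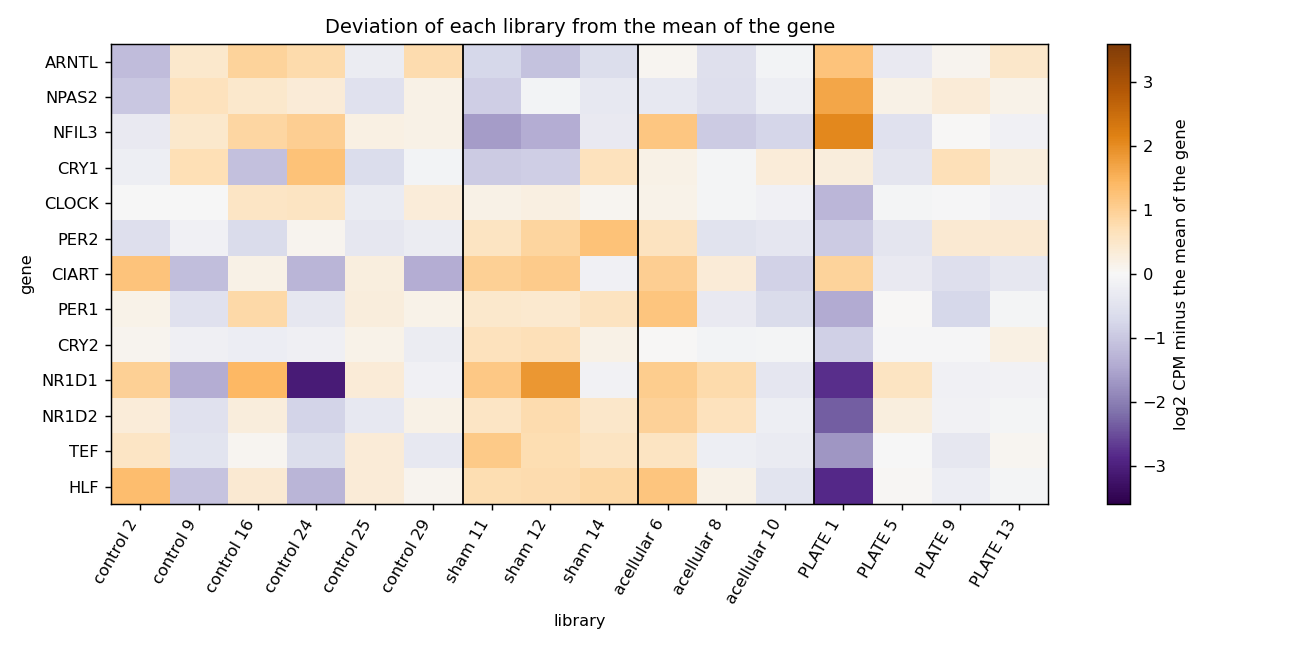
Deviation of each library from the mean of the gene (log2 CPM, colour scale) for the 8 clock genes and 5 other clock genes, libraries ordered by group and number, black lines between groups. PLATE 1 and control 24 are low in NR1D1 and HLF and high in ARNTL, and sham 11 and 12 show the reverse.

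The activators ARNTL and NPAS2 ran together, with r = 0.810 (permutation p = 4e-05, adjusted p = 0.00112) and rho = 0.824 (permutation p = 0.00012, adjusted p = 0.00308). Without the 2 libraries farthest from the ARNTL median, control 2 and PLATE 1, r was 0.712. ARNTL and CRY2 were opposed, with r = -0.767 (permutation p = 0.00023, adjusted p = 0.00308), rho = -0.741 (permutation p = 0.00176, adjusted p = 0.0123) and r = -0.766 without the same 2 libraries. Both relations passed with any 1 of the 16 libraries left out, r staying between 0.771 and 0.866 for the first and between -0.818 and -0.700 for the second. ARNTL and NR1D1, the second loop, had r = -0.645 (permutation p = 0.00576, adjusted p = 0.0188) and rho = -0.582 (permutation p = 0.0198, adjusted p = 0.0693). Without control 2 and PLATE 1 their r was -0.520 (adjusted p = 0.185), and without PLATE 1 alone -0.539 (adjusted p = 0.158). Control 16 went against the relation, with ARNTL at 14.4 CPM and NR1D1 at 134 CPM, and without it r was -0.817.

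ARNTL with PER1 (r = -0.349, permutation p = 0.184, adjusted p = 0.234) and with PER2 (r = -0.377, permutation p = 0.149, adjusted p = 0.223) did not pass. ARNTL with CRY1 (r = 0.355, permutation p = 0.175, adjusted p = 0.233) and with CLOCK (r = -0.131, permutation p = 0.653, adjusted p = 0.661) did not pass either. The last turned to 0.426 without control 2 and PLATE 1. The rho values were -0.341 for PER1, -0.306 for PER2, 0.353 for CRY1 and 0.044 for CLOCK (permutation p = 0.194, 0.249, 0.179 and 0.873). Without control 2 and PLATE 1 the r of the first 3 pairs was -0.130, -0.441 and 0.344. Without control 16, ARNTL and CRY1 reached 0.600 (adjusted p = 0.0383).

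NPAS2 was opposed to CRY2 (r = -0.729, permutation p = 0.00218, adjusted p = 0.0102, rho = -0.650 with permutation p = 0.00748) and to NR1D1 (r = -0.656, permutation p = 0.00589, adjusted p = 0.0188, rho = -0.524 with permutation p = 0.03796). Without control 2 and PLATE 1 these were -0.584 and -0.448, and without PLATE 1 alone -0.522 and -0.472 (adjusted p = 0.158 and 0.204). CLOCK ran with PER1 (r = 0.622, permutation p = 0.0113, adjusted p = 0.0316, rho = 0.515 with permutation p = 0.04324), at 0.555 without control 24 and PLATE 1, and at 0.333 without PLATE 1 (adjusted p = 0.392). That library held the lowest CLOCK, PER1, PER2 and CRY2 and the highest ARNTL and NPAS2 of all 16.

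Within the repressors, NR1D1 split the members. CRY1 was opposed to NR1D1, with r = -0.771 (permutation p = 0.00033, adjusted p = 0.00308) and rho = -0.818 (permutation p = 0.00022, adjusted p = 0.00308). Without control 16 and control 24, the libraries farthest from the CRY1 median, r was -0.648. It was -0.840 to -0.683 with any 1 library left out. NR1D1 ran with PER1 (r = 0.713, permutation p = 0.00214, adjusted p = 0.0102, rho = 0.759 with permutation p = 0.00098) and with CRY2 (r = 0.661, permutation p = 0.00604, adjusted p = 0.0188, rho = 0.547 with permutation p = 0.03065). Without the libraries farthest from the median of the first gene these were 0.586 (acellular 6 and PLATE 1) and 0.358 (sham 12 and PLATE 1). They were 0.588 and 0.493 without PLATE 1, with adjusted p = 0.105 and 0.203. PER2 and CRY2 ran together (r = 0.690, permutation p = 0.00193, adjusted p = 0.0102, rho = 0.662 with permutation p = 0.00624), at 0.643 without sham 12 and sham 14 and at 0.618 without PLATE 1 (adjusted p = 0.0851). Sham 12, the library with the highest NR1D1, also bore on calls near the threshold. Without it ARNTL and NR1D1 stood at -0.588, CRY2 and NR1D1 at 0.596, PER2 and CRY2 at 0.621 and CLOCK and PER1 at 0.612 (adjusted p = 0.0618, 0.0618, 0.0512 and 0.0558). CLOCK and PER1 stood at 0.570 without control 16 (adjusted p = 0.05945).

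**Figure D4:**
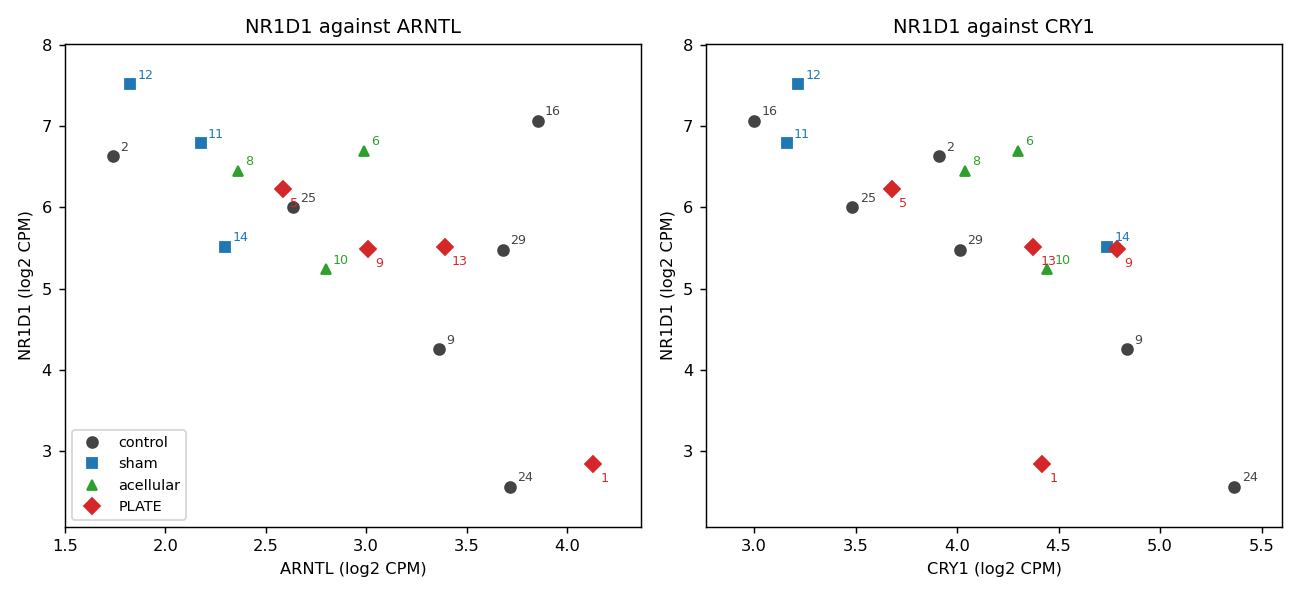
NR1D1 against ARNTL (left) and against CRY1 (right), both axes in log2 CPM, 1 point per library with its animal number. Over 16 libraries r was -0.645 for ARNTL, with control 16 off the trend, and -0.771 for CRY1.

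Differences between treatments were then taken out of the values. When they were centred on their group means and permuted within groups, 2 of the 28 pairs passed. These were CRY1 with NR1D1 (r = -0.786, permutation p = 0.00181, adjusted p = 0.0262) and PER1 with NR1D1 (r = 0.689, permutation p = 0.00187, adjusted p = 0.0262). ARNTL and NPAS2 stood at 0.809 (adjusted p = 0.0552), ARNTL and CRY2 at -0.633 (adjusted p = 0.0590) and ARNTL and NR1D1 at -0.540 (adjusted p = 0.218). ARNTL with PER2 went from -0.377 to 0.072. Of the 15 activator and repressor pairs 7 were then below 0. In the 6 unoperated controls alone, CRY1 and NR1D1 had r = -0.946 (exact permutation p = 0.00694) and ARNTL and CRY2 r = -0.885 (exact permutation p = 0.0389). ARNTL and NR1D1 had r = -0.388 there (exact permutation p = 0.447). Adjusted over the 28 pairs these were 0.0972, 0.136 and 0.783.

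Of the 24 other clock genes, NR1D2, TEF, HLF, NFIL3 and CIART were set against ARNTL and NR1D1, and the rest were not examined in this way. NFIL3, repressed by NR1D1 in mouse liver, ran with ARNTL (r = 0.796, permutation p = 0.00025, adjusted p = 0.000625 over 10 pairs, rho = 0.791 with permutation p = 0.00053). TEF (r = -0.746, permutation p = 0.00058, adjusted p = 0.00116, rho = -0.729 with permutation p = 0.00199) and HLF (r = -0.704, permutation p = 0.00111, adjusted p = 0.00185, rho = -0.676 with permutation p = 0.00486) were opposed to ARNTL, as was NR1D2 (r = -0.636, permutation p = 0.00411, adjusted p = 0.00587, rho = -0.638 with permutation p = 0.00906). NR1D1 ran with HLF (r = 0.870, permutation p = 6e-05, adjusted p = 0.000333, rho = 0.835 with permutation p = 0.00014), NR1D2 (r = 0.848, permutation p = 7e-05, adjusted p = 0.000333, rho = 0.853 with permutation p = 9e-05) and TEF (r = 0.799, permutation p = 0.0001, adjusted p = 0.000333, rho = 0.824 with permutation p = 0.00018). Without control 24 and PLATE 1, the libraries farthest from the NR1D1 median, these 3 stood at 0.756, 0.757 and 0.665. NFIL3 and NR1D1 stood at -0.608 (permutation p = 0.01235, adjusted p = 0.0154, rho = -0.447 with permutation p = 0.08498), and at -0.249 without them. CIART had r = 0.507 with NR1D1 (permutation p = 0.0438, adjusted p = 0.0487, rho = 0.729 with permutation p = 0.00209), and 0.839 without the same libraries. With ARNTL it had r = -0.488 (permutation p = 0.0559, adjusted p = 0.0559, rho = -0.562 with permutation p = 0.0252). Without control 2 and PLATE 1, the r of ARNTL was 0.794 with NFIL3, -0.656 with TEF, -0.530 with HLF and -0.538 with NR1D2. Of the 10 pairs 9 passed, and the share of other genes that would pass with ARNTL or NR1D1 was not counted. By r with NR1D1, 11.3% of all genes stood above CIART and 6.93% below NFIL3, and both pairs passed. At the other end 0.0366% stood above HLF. By r with ARNTL, 1.58% of all genes stood below NR1D2 and 0.0914% above NFIL3. After centring on group means, ARNTL with NFIL3 and NR1D1 with HLF, NR1D2 and TEF passed, at r = 0.684, 0.859, 0.822 and 0.795 (adjusted p = 0.00193, 0.00193, 0.0018 and 0.00222).

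**Figure D5:**
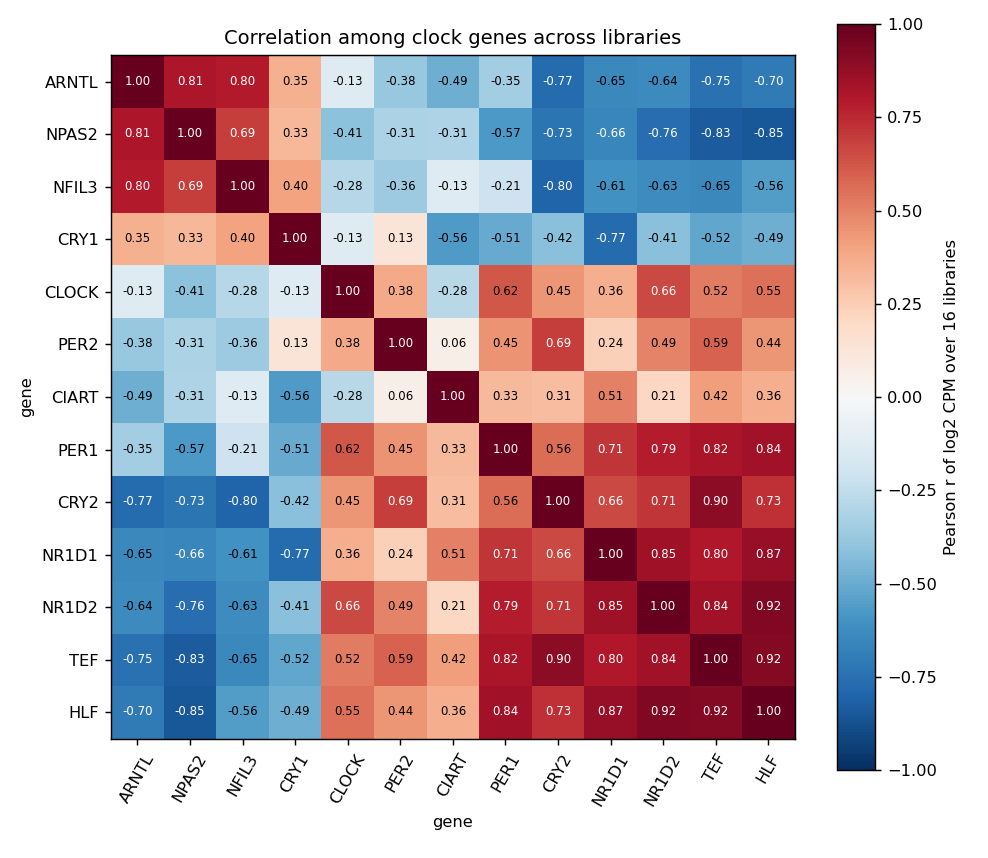
Pearson's r of log2 CPM over 16 libraries for each pair of the 8 clock genes and 5 other clock genes; red is above 0 and blue below 0. ARNTL, NPAS2 and NFIL3 run together and opposite to CRY2, NR1D1, NR1D2, TEF and HLF, with r = -0.767 for ARNTL and CRY2 and 0.870 for NR1D1 and HLF.

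Against the whole table, some clock genes stood near the ends of the order of likeness and others in its middle. Of 10941 genes ranked by r with ARNTL over the 16 libraries, NPAS2 came 7th and NFIL3 11th from the top, and CRY2 15th, TEF 19th, HLF 37th, NR1D1 151st and NR1D2 174th from the bottom. CRY1 came 2246th and CLOCK 6926th from the top, and CIART 868th, PER2 1715th and PER1 1948th from the bottom. The 5 genes most like ARNTL were IDO2 (r = 0.845), CDC42SE1 (0.834), SERPINB5 (0.831), PTPN9 (0.827) and PKP1 (0.827), and the 5 most opposed were GCDH (-0.859), C12orf4 (-0.841), CCDC97 (-0.828), B4GAT1 (-0.798) and PELP1 (-0.790). By r with NR1D1, HLF came 5th, NR1D2 9th, TEF 28th, PER1 170th and CRY2 332nd from the top, and CRY1 66th, NPAS2 479th, ARNTL 553rd and NFIL3 759th from the bottom. CIART came 1234th, CLOCK 2384th and PER2 3443rd from the top. The 5 most like NR1D1 were TMC1 (0.906), BMT2 (0.891), NEB (0.876), NDP (0.874) and HLF (0.870). The 5 most opposed were VPS36 (-0.884), CEBPG (-0.870), SERPINB10 (-0.863), HMOX1 (-0.859) and VAMP5 (-0.854). These ranks are a description, since all genes share the same libraries, depth and tissue composition.

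Tissue composition moved with some members. Among 88 relations of the 8 genes with 8 marker lists, immediate early genes, glucocorticoid-responsive genes and depth, 2 passed. PER1 was opposed to the leukocyte markers (r = -0.791, permutation p = 0.00017, adjusted p = 0.0150, rho = -0.768 with permutation p = 0.00085) and NPAS2 ran with them (r = 0.797, permutation p = 0.00056, adjusted p = 0.0246, rho = 0.671 with permutation p = 0.0061). With rho the NPAS2 relation did not pass (adjusted p = 0.107), while PER1 with leukocyte markers did (adjusted p = 0.0422). CLOCK with nerve and Schwann cell markers (rho = 0.759, permutation p = 0.00123, adjusted p = 0.0422) and PER1 with endothelium markers (rho = -0.741, permutation p = 0.00144, adjusted p = 0.0422) passed with rho alone, at r = 0.634 and -0.591. Without the 2 libraries farthest from the leukocyte median, r was -0.644 for PER1 and 0.461 for NPAS2. ARNTL stood at 0.580 and NR1D1 at -0.647 with the leukocyte markers (adjusted p = 0.137 each). PER1 with the glucocorticoid-responsive genes other than PER1 had r = 0.613 and with immediate early genes r = 0.567 (adjusted p = 0.137 and 0.176). The library with the highest leukocyte markers, PLATE 1, also held the highest ARNTL and NPAS2, and the part of leukocytes in the clock values was not tested. With smooth muscle and columnar epithelium markers taken out of the values, 9 of the 28 pairs passed, and CLOCK with PER1 did not (r = 0.584, adjusted p = 0.06101). Neither of these lists had passed with any clock gene, and the leukocyte markers were not taken out.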

How the data were processed

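Poly(A) RNA of 16 rabbit vaginas was sequenced from stranded libraries, per the labels' protocols. FastQC, HISAT2 2.2.1 and featureCounts are named in the submitters' processing notes; genome build, annotation and strand setting are not given in the sources used here. The authors deposited whole-number counts for each gene symbol. A column was assigned to its sample through the final index of its name, since the descriptions give the same middle number, 101, for every sample while the column names do not. A line pooling reads without a gene symbol, 22.9 to 28.5% of 20992063 to 30695000 counts, was left out. Library sizes were scaled by TMM, genes filtered with filterByExpr and fitted with edgeR 4.0.16 (quasi-likelihood F test, R 4.3.3) with a mean per group over all 16 libraries, 12 residual degrees of freedom and Benjamini-Hochberg adjustment over 10942 genes at 0.05. Correlations used log2 CPM with a prior count of 2. Both steps were also run on simulated data, and the outcome is not given here. The smallest p that 100000 resamples can give is 1e-05.

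PER3 and DBP were not analysed here, which leaves 28 pairs and 15 activator and repressor pairs. Fold changes are given for members past the threshold, members whose groups did not overlap and the 2 with the smallest p. Correlations are given for ARNTL and for every pair past the threshold with r or rho. Among the other clock genes, KLF10, USP2 and SIRT1 were named after their values were seen. Fold changes of other clock genes were described above for sham against control and PLATE against sham only. In PLATE against control TIMELESS stood at 0.93 ± 0.41 (edgeR unadjusted p = 0.0379, adjusted p = 0.998). In acellular against sham, groups did not overlap for 4 of the 24, beside 18.3% of all genes. Alternatives were DESeq2 1.42.0 size factors and test, limma 3.58.1 voom with quality weights, no filter, a prior count of 0.5, only the groups compared, marker residuals, group centring and libraries left out. The members and lists were chosen with earlier results of these data known. Where nothing in the labels ties libraries to batches, p-values measure the spread between these animals.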

Additional observations from a re-analysis of the deposited data

Results flagged for a closer look

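PLATE 1 lay far from the other 3 PLATE libraries in 4 clock genes. CLOCK stood at 16.9 CPM there against 36.7 to 38.8 CPM in the others, and NPAS2 at 36.5 CPM against 12.7 to 14.5 CPM. NR1D2 stood at 41.9 CPM against 194 to 256 CPM and HLF at 12.6 CPM against 76.7 to 92.8 CPM. In each case the gap to the nearest library, divided by the range of the group, was 0.847 to 0.931, above the critical value of Dixon's test for 4 libraries. In all, 26 groups were examined, and chance marks about 1 group in 20. All 4 marks fell on PLATE 1, in genes correlated over the 16 libraries (NR1D2 and HLF r = 0.924, NPAS2 and HLF r = -0.847). They are therefore 1 unusual library and not 4 independent marks. No control library was marked for any of the 13 genes.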

How the results depend on the processing

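No paired analysis was possible because control and PLATE share a single number, 9, and no other groups share any. The count of clock genes past the threshold was 0 in every comparison under every alternative that gave a value, DESeq2 giving no adjusted p for these genes in acellular against control. The smallest adjusted p of a clock gene was 0.05879, for PER2 in acellular against sham under limma voom, which called 72 of all genes there. With any 1 library left out, the count of clock genes past the threshold was 0 in each comparison. Counting pairs past the threshold, 10 as reported became 2 after centring on group means, 3 without control 2 and PLATE 1, 2 without control 9 as well, and 1 with both changes, an alternative chosen after seeing the data. With 1 library left out it ranged from 3 (without PLATE 1) to 13 (without control 16 or acellular 6), and it was 6 without sham 12. The number of the 15 activator and repressor pairs below 0 ranged from 8 to 11 with 1 library left out and from 7 to 11 under the other alternatives. Directions reversed in these cases. NPAS2 in PLATE against control was -0.043 without control 2 and PLATE 1. PER1 in PLATE against acellular ran from -1.085 to 0.036 with 1 library left out, the latter without acellular 6. ARNTL and CLOCK ran from -0.287 to 0.432 with 1 library left out, at 0.020 after centring, 0.426 without control 2 and PLATE 1, 0.461 without control 9 as well and 0.699 with both changes. ARNTL and PER2 stood at 0.072 after centring and 0.438 with both changes, where ARNTL and PER1 stood at 0.179 and PER2 and CRY2 at -0.025. The cause was not tested. CRY1 and NR1D1 passed under each of these alternatives, with r of -0.915 to -0.748. Each clock gene had at least 36 reads per library.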

Other observations

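In the 6 unoperated controls PER2 and NR1D1 ran almost exactly opposite, with r = -0.979 (exact permutation p = 0.00139, the smallest that 720 orders can give; adjusted p = 0.0389 over 28 pairs). Over all 16 libraries the same pair had r = 0.239 (permutation p = 0.375, adjusted p = 0.420). In the controls PER2 also ran with CRY1 (r = 0.904, exact permutation p = 0.0167, adjusted p = 0.117) and opposite to PER1 (r = -0.837, exact permutation p = 0.0347, adjusted p = 0.136). The pair was picked out after the values were seen. The difference between the controls and the other libraries was not tested.

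ARNTL2, a relative of ARNTL, stood at 17.0 CPM in control 9 and 8.11 CPM in PLATE 9, and between 0.1556 and 3.601 CPM in the other 14 libraries.

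The log2 difference of NR1D1 over ARNTL describes these 2 genes in each library and is no measure of the arms. NR1D1 varied more of the 2 (log2 SD 1.40 against 0.73). The difference was -1.29 in PLATE 1, -1.15 in control 24 and 0.90 in control 9. It was between 1.80 and 5.69 in the other 13 libraries, the highest in sham 12. Sham 11, 12 and 14 stood at 4.61, 5.69 and 3.22, acellular 6, 8 and 10 at 3.71, 4.09 and 2.44, and PLATE 5, 9 and 13 at 3.64, 2.47 and 2.12.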
